A study of Homo sapiens with 27 samples.

Results

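The mRNA levels of 9 early-response genes were followed in U937 cells treated with matrine. The genes were 3 zinc finger transcription factors (EGR1, EGR2 and EGR3), the 2 co-repressors that bind them (NAB1 and NAB2), 3 immediate early response genes (IER2, IER3 and IER5) and SRF, the serum response factor. They were taken by symbol from a table of 57905 gene identifiers, and all 9 were found in it. U937 is an established human myeloid leukemia cell line, and every library came from this 1 line. The cells were grown in serum-supplemented RPMI medium. The groups were control cells, cells exposed for 30 min to matrine at 0.8 mg/ml and cells exposed to the same concentration for 24 h, with 3 libraries per group. Matrine, an alkaloid of the herb Sophora flavescens, was dissolved in ddH2O. How long the control cells were cultured beside the treated cells is not given in the sources used here, so the 24 h comparison also holds any effect of time in culture. The study asked by qPCR which immediate early genes respond rapidly to matrine, and EGR1 and IER2 were among the genes it measured. It reported lower c-Myc mRNA in U937, HL-60 and K562 and no significant effect on the other early genes. The comparisons here ask the same of the whole family from the sequencing data, at both times.

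Immediate early genes are transcribed within minutes of a stimulus, without new protein synthesis, and many of their transcripts are short-lived. Growth factor signals reach them through the MAPK cascade, which phosphorylates ternary complex factors such as ELK1 that sit beside SRF on DNA. SRF binds a short AT-rich element, the CArG box, in the promoters of EGR1, EGR2, FOS and SRF itself. EGR proteins bind GC-rich sites, and NAB1 and NAB2 bind the EGR proteins and restrain them, NAB2 being itself a target of EGR1. In the monocytic lineage EGR1 and EGR2 are known for their part in macrophage differentiation.

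To show which of these elements the members carry, the 250 bases before each annotated start were searched in the RefSeq promoter table (GRCh38.p14). A window was held for 7 of the 9 members, and IER3 and EGR3 had none. The 7 members had 12 windows, as a gene can have more than 1 annotated start. CArG boxes were present in 3 members, EGR1, EGR2 and SRF, while 1.16% of all 35116 windows held such a box. These 3 were already known to carry it, as stated above, so the finding is no test. Shares of all windows given here are not shares of genes and cannot be compared directly with counts of members. The stretches of EGR1 (chr5:138465229-138465478, plus strand) and SRF (chr6:43171189-43171268, plus strand) are printed below, each ending at the base before the annotated start, with the CArG boxes in capitals.
EGR1: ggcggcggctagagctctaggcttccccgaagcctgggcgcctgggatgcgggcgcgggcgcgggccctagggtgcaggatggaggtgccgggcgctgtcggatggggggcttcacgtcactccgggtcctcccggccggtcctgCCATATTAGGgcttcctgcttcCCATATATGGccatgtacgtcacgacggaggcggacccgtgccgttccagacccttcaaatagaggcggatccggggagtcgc
SRF: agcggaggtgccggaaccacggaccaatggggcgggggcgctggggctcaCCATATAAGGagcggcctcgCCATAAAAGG
EGR1 had 2 boxes, which ended 96 and 74 bases before its start, and SRF had 2, which ended 21 bases and 1 base before its start. EGR2 had 1 box, CCATATATGG, starting 71 bases before the most downstream of its 3 annotated starts, and its letters equal those of the second box of EGR1. The EGR site, searched as GCGTGGGCG or GCGGGGGCG on both strands, was found in 5.37% of all windows and in 3 members: 3 sites in NAB1 (2 of them overlapping), 1 in NAB2, 62 to 54 bases before its start, and 1 in SRF. The string CCGGAA, a longer form of the ETS core GGAA of the ternary complex factors, was searched on either strand. It was found in IER2, IER5 and SRF and in 14.5% of all windows. The core GGAA alone was not searched. In the EGR1 stretch it stands between the 2 CArG boxes, read on the other strand as TTCC. The full cAMP response element TGACGTCA, searched with no mismatch, was found in no member window and in 1.65% of all windows. Its shorter part CGTCA was not searched and is present in the EGR1 stretch. These matches are letters in a window and do not show that a factor was bound.

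Levels are given as FPKM, the count scaled by gene length and by the library's total, as the authors deposited them, and tests were made on the deposited counts with edgeR's quasi-likelihood test. Total counts lay between 17314931 and 21930018 per library. A gene was tested in a comparison where its mean FPKM over the 6 libraries was above 1, and was called higher or lower at an adjusted p (Benjamini-Hochberg, over all genes tested) below 0.05 together with a fold change of at least 1.5. EGR2 and EGR3 were under the filter, so 7 of the 9 members were tested. The U937 label was checked against 12 myeloid markers: the granule genes ELANE, PRTN3, AZU1 and LYZ lay at 192.73 FPKM or more in every library, CD33 between 13.95 and 16.64 FPKM and SPI1 between 54.43 and 72.95 FPKM, FCER1G between 41.3 and 163.32 FPKM and CD4 between 27.26 and 44.73 FPKM, while MPO, CSF1R and CD68 stayed below 2 FPKM and ITGAM reached 3.22 FPKM. CD3D, CD3E, MS4A1 and HBG1, among the markers of other lineages, were at 0 in all 9 libraries. In bulk RNA, fewer cells expressing a gene and less RNA per cell cannot be told apart.

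After 30 min of matrine, EGR1 fell 4.34-fold and IER3 fell 2.84-fold, while SRF and both NAB genes stayed within 1.1-fold of the control. IER2 was lower by 1.43-fold, under the fold change asked for a call. Of the 7 tested members, 2 were called lower and 0 higher, where 0.544% of the 11587 genes tested were called lower and 0.0949% higher. Of the 2, IER3 passed the filter only through its control level, and without control replicate 2 or 3 or 30 min replicate 1 or 3 the count was 1 (EGR1). By the adjusted p alone, 3 members were lower and 0 higher, against 1.33% and 0.293% of all genes tested. The groups did not overlap in FPKM for 3 members that were lower (EGR1, IER2 and IER3) and 1 that was higher (IER5), against 8.91% and 4.89% of all genes. The median log2 fold change was -0.10 over the 7 members and -0.0043 over all genes tested.

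After 24 h the picture differed. EGR1 had come back to near its control level, IER3 had risen above it, and NAB2 was higher by 1.44-fold. Of the 7 tested members, 1 (IER3) was called higher and 0 lower, where 15.1% of the 12035 genes tested were called higher and 11.2% lower, so 1 call among 7 members is no more than the background share. By the adjusted p alone, 3 members were higher (NAB2, IER3 and IER5) and 2 lower (EGR1 and IER2), against 31.5% and 31.8% of all genes. The groups did not overlap for 3 higher members (NAB2, IER3 and IER5) and 3 lower ones (EGR1, IER2 and SRF), against 38.7% and 31.0% of all genes. The median log2 fold change was 0.08 over the members and 0.0082 over all genes.

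**Figure D1:**
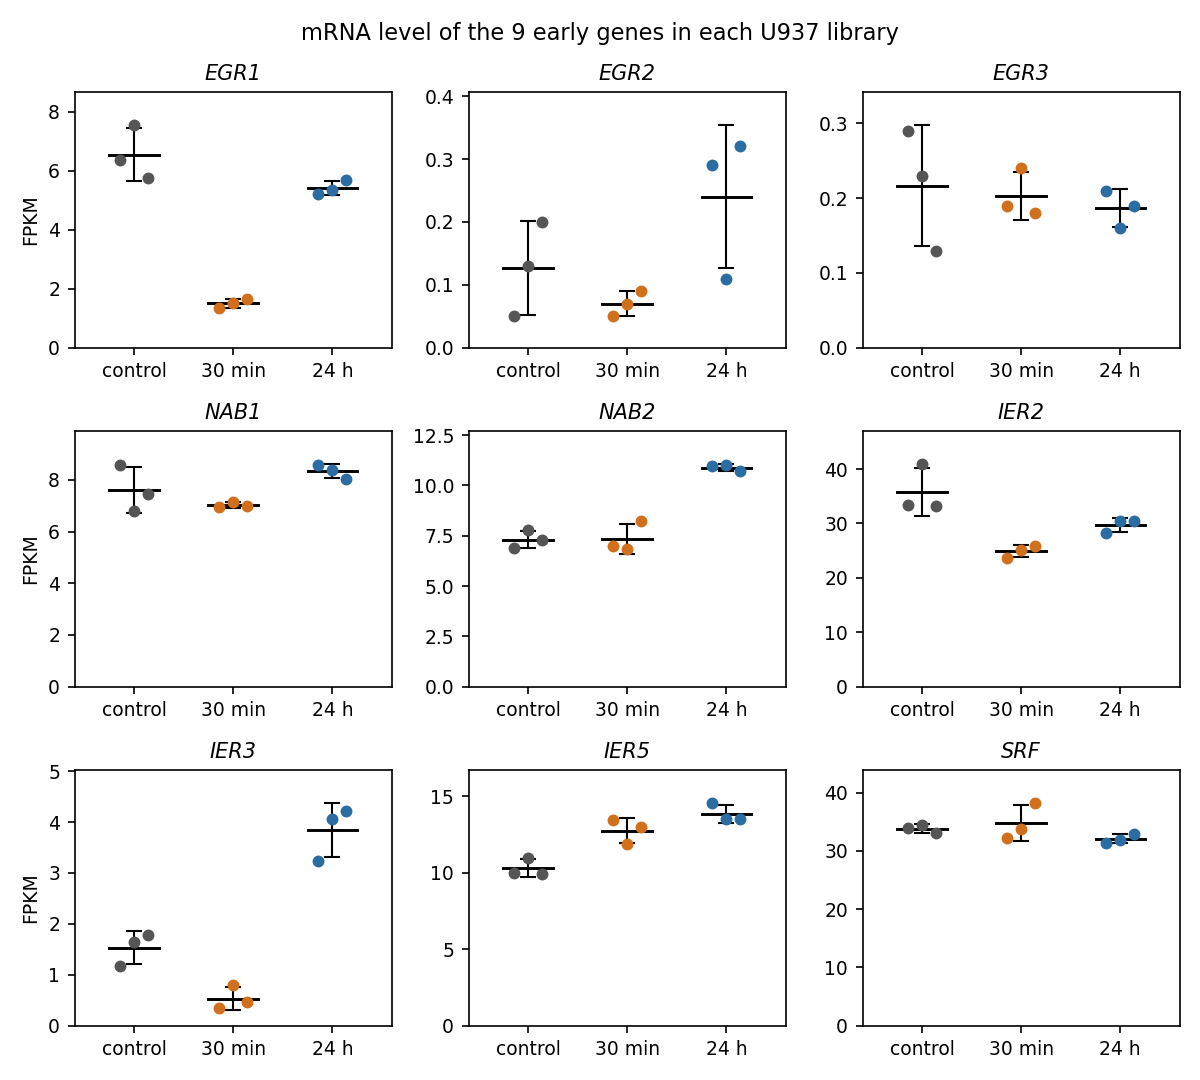
FPKM of each of the 9 members by group, for U937 control cells and cells with matrine (0.8 mg/ml) for either time. Points are libraries, lines are group means and error bars are SD (n = 3), with a separate axis from 0 for each gene. The 30 min points of EGR1, between 1.34 and 1.64, lie under all other EGR1 points, and the 24 h points of IER3, between 3.23 and 4.22, lie over all other IER3 points.

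EGR1 (chr5:138465479-138469303 in GRCh38) encodes the best known factor of the family, induced in most cell types by serum and stress. Its level in the control libraries was 6.37, 7.54 and 5.74 FPKM, in replicate order, from 416, 458 and 312 counts. After 30 min it was 1.34, 1.52 and 1.64 FPKM, from 92, 98 and 105 counts. After 24 h it was 5.20, 5.35 and 5.67 FPKM, from 335, 342 and 389 counts. All 3 libraries at 30 min lay below every control library, and all 3 at 24 h lay between the 2 sets, just under the lowest control. The group means were 6.55 ± 0.913 FPKM in control cells, 1.5 ± 0.151 at 30 min and 5.41 ± 0.240 at 24 h (SD, n = 3 each). At 30 min the fall was 4.34-fold (log2 fold change -2.12, SE 0.127, edgeR adjusted p = 7.7e-10), and EGR1 ranked 13th from the lowest of the 11587 genes by fold change. At 24 h EGR1 was lower than control by 1.25-fold (log2 fold change -0.33, SE 0.110, edgeR adjusted p = 0.0133), which was no call. Between the times it rose 3.42-fold (log2 fold change 1.77, SE 0.129, edgeR adjusted p = 1.71e-10).

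EGR2, a factor of myelin formation and of macrophage and lymphocyte biology, was at a very low level in these cells. It had 4, 9 and 13 counts in the control libraries, 4, 5 and 7 at 30 min and 22, 8 and 26 at 24 h, which is 0.32 FPKM at most. The 30 min and control libraries overlapped, and the 24 h libraries spread from 0.11 to 0.32 FPKM. In an edgeR fit with no filter on FPKM, EGR2 differed from control by log2 fold changes of -0.81 at 30 min (SE 0.564, adjusted p = 0.819) and 0.83 at 24 h (SE 0.475, adjusted p = 0.204). The same fit called it higher at 24 h than at 30 min (log2 fold change 1.64, SE 0.512, adjusted p = 0.00536), all 3 libraries at 24 h lying above all 3 at 30 min. Summed over 3 libraries, that is 56 counts against 16, with exact Poisson intervals of 42.3 to 72.7 and 9.145 to 25.98 (95%, counting error only). The p-values of the fit with no filter can be far smaller than with the filter at a like SE. For EGR1 at 30 min the edgeR adjusted p was 1.94e-57 without it and 7.7e-10 with it. The EGR2 call is therefore weak. EGR2 also shares 145 exon bases with ENSG00000289487 on the same strand. That gene is not among the deposited identifiers, so the source of a part of the EGR2 reads is uncertain.

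EGR3, a relative of EGR2 in lymphocytes and nerve cells, showed no difference that this depth could resolve. It shares 164 exon bases with ENSG00000253125 on the opposite strand, which had 1 to 14 counts per library, so the source of a part of the EGR3 reads is uncertain. The EGR3 counts were 29, 22 and 11 in control libraries, 20, 24 and 18 at 30 min and 21, 16 and 20 at 24 h. Summed counts were 62 in control cells and 62 at 30 min (exact Poisson interval 47.5 to 79.5 for each) and 57 at 24 h (43.2 to 73.8). With no filter, edgeR gave log2 fold changes of -0.09 at 30 min (SE 0.358, adjusted p = 1) and -0.35 at 24 h (SE 0.362, adjusted p = 0.552). EGR1 thus made up 95% ± 0.404 of the summed FPKM of the 3 EGR genes in control cells, 84.6% ± 1.41 at 30 min and 92.7% ± 2.18 at 24 h (SD, n = 3 each), and its share in every 30 min library was below that in every other library.

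NAB1 (chr2:190646746-190692766) and NAB2 (chr12:57089043-57095476) encode the co-repressors. NAB1 was expressed at 8.57, 6.79 and 7.45 FPKM in control cells, 6.96, 7.15 and 6.98 at 30 min and 8.58, 8.37 and 8.04 at 24 h. The control libraries spread over both treated groups. The antisense ENSG00000228509, with 589 shared exon bases, had at most 12 counts in a library. ENSG00000284052, also antisense, shares 10 exon bases with NAB1 and is not among the deposited identifiers. The log2 fold changes of NAB1 were -0.10 at 30 min (SE 0.0818, edgeR adjusted p = 0.726) and 0.08 at 24 h (SE 0.0802, edgeR adjusted p = 0.375).

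NAB2 was expressed at 6.89, 7.77 and 7.27 FPKM in control cells and at 7, 6.82 and 8.21 FPKM at 30 min. At 24 h it was 10.96, 10.99 and 10.69 FPKM. The first 2 groups overlapped, and every library at 24 h lay above all 6 others. Its mean was 7.31 ± 0.441 FPKM in control cells, 7.34 ± 0.756 at 30 min and 10.9 ± 0.165 at 24 h (SD, n = 3 each). The edgeR log2 fold change was 0.02 at 30 min (SE 0.0896, adjusted p = 0.973) and 0.53 at 24 h (SE 0.0889, adjusted p = 2.8e-05), a 1.44-fold difference that did not reach the 1.5-fold asked for a call. The interval of 1 SE on either side of the 24 h value includes the threshold, which is 0.585 on the log2 scale. STAT6 lies on the opposite strand with 69 exon bases shared with NAB2 in GENCODE 44, and it was expressed at 14.87 to 22.42 FPKM. Its log2 fold change was -0.04 at 30 min (adjusted p = 0.885) and 0.31 at 24 h (adjusted p = 0.000354). The strand setting of the counting is not given in the sources used here, so the part of STAT6 reads in the NAB2 count was not tested.

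The balance of EGR1 to its co-repressor was read as the ratio of EGR1 to NAB2 FPKM within each library. It was 0.925, 0.970 and 0.790 in control cells, 0.191, 0.223 and 0.200 at 30 min and 0.474, 0.487 and 0.530 at 24 h. The 3 groups did not overlap, with means of 0.895 ± 0.0937, 0.205 ± 0.0165 and 0.497 ± 0.0293 (SD, n = 3 each). Although EGR1 itself was within 1.3-fold of control at 24 h, its ratio to NAB2 was lower than in every control library. The NAB2 to NAB1 ratio was 0.973 ± 0.168 in control cells, 1.05 ± 0.118 at 30 min and 1.31 ± 0.0252 at 24 h, and its 24 h libraries (1.28 to 1.33) lay above all others. With 3 libraries against 3, an exact permutation test of a ratio cannot give a two-sided p below 0.1, so these ratios are given without a test.

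**Figure D2:**
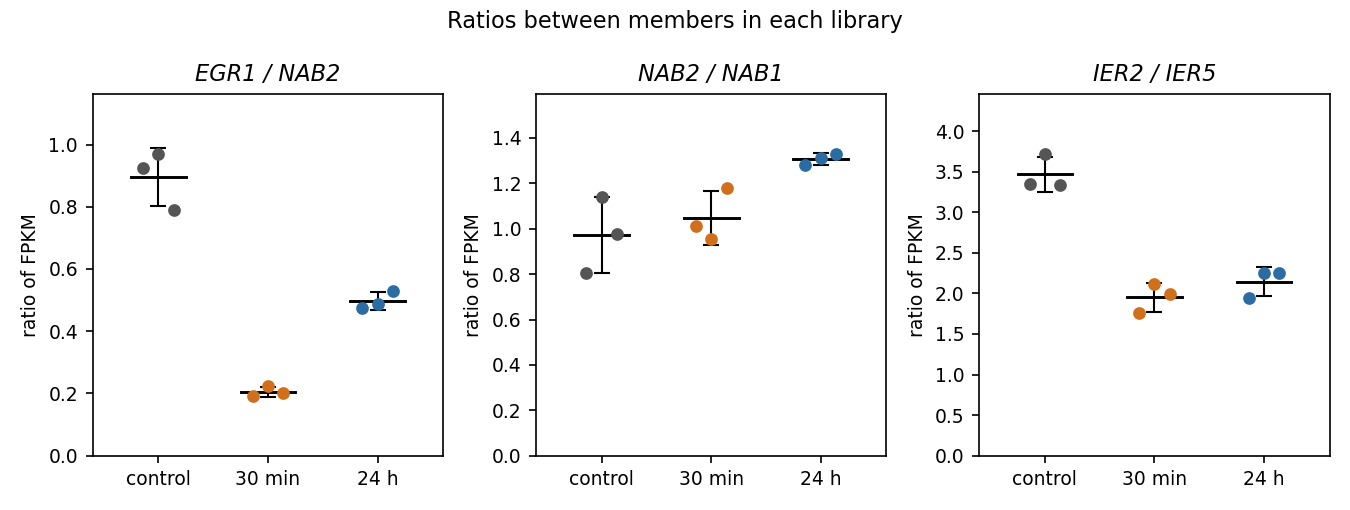
Ratios of FPKM within each library for EGR1 to NAB2, NAB2 to NAB1 and IER2 to IER5, by group. Points are libraries, lines are means and error bars are SD (n = 3), with axes from 0. EGR1 to NAB2 lies between 0.790 and 0.970 in control cells, between 0.191 and 0.223 at 30 min and between 0.474 and 0.530 at 24 h.

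The 3 IER genes share a name rather than a structure, apart from IER2 and IER5, which belong to the same family of nuclear proteins. IER2 (chr19:13150411-13154911) was the most abundant, at 33.42, 40.86 and 33.18 FPKM in control cells. It was 23.68, 25.05 and 25.85 FPKM at 30 min and 28.26, 30.38 and 30.44 FPKM at 24 h. All 6 treated libraries lay below every control library, and those at 24 h above those at 30 min. The means were 35.8 ± 4.37, 24.9 ± 1.10 and 29.7 ± 1.24 FPKM (SD, n = 3 each). In edgeR the log2 fold change was -0.52 at 30 min (SE 0.0769, adjusted p = 0.000357), 1.43-fold, and -0.32 at 24 h (SE 0.0776, adjusted p = 0.00119), 1.25-fold, neither reaching 1.5-fold. From 30 min to 24 h IER2 differed by 0.18 on the log2 scale (SE 0.0780, edgeR adjusted p = 0.0518). ENSG00000267598, on the opposite strand with 946 shared exon bases, was at 0 counts in all 9 libraries. ENSG00000287296, on that strand with 662 shared exon bases, is not among the deposited identifiers. As the strand setting is not given, the part of antisense reads in the IER2 count was not tested.

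IER3 (chr6:30743199-30744548, a gene of 1 exon interval in the merged annotation) encodes a small protein induced by stress, growth factors and NF-kB, with reported roles in apoptosis and ERK signalling. It was a low transcript, with 33, 43 and 42 counts in control libraries, 10, 22 and 13 at 30 min and 90, 112 and 125 at 24 h. In FPKM these were 1.17, 1.64 and 1.79, then 0.34, 0.79 and 0.47, then 3.23, 4.06 and 4.22. None of the 3 groups overlapped: the 30 min libraries were the lowest and the 24 h libraries the highest. Its means were 1.53 ± 0.323, 0.533 ± 0.232 and 3.84 ± 0.531 FPKM (SD, n = 3 each). At 30 min it fell 2.84-fold (log2 fold change -1.504, SE 0.305, edgeR adjusted p = 0.00886). Its mean over those 6 libraries was 1.03 FPKM, so it passed the filter of 1 through its control level, and its place among the called members rests on that. With no filter the log2 fold change was -1.495 (SE 0.286, edgeR adjusted p = 5.75e-05). The p-values of that fit can be far smaller at a like SE. For EGR1 at 30 min the edgeR adjusted p was 1.94e-57, beside 7.7e-10 with the filter. The no-filter p of IER3 thus adds no support to its call. The 30 min call was lost without 30 min replicate 1 (log2 fold change -1.26, adjusted p = 0.0757) and without 30 min replicate 3 (-1.42, adjusted p = 0.0528), and IER3 was under the filter without control replicate 2 or 3. At 24 h IER3 rose above control 2.44-fold (log2 fold change 1.29, SE 0.225, edgeR adjusted p = 4.27e-05), a call kept with each library left out in turn. Between 30 min and 24 h it rose 6.83-fold (log2 fold change 2.77, SE 0.266, edgeR adjusted p = 1.16e-08). IER3-AS1 and HCG20, on the opposite strand, had at most 3 and 0 counts in a library.

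IER5 (chr1:181088700-181092900), whose product is known for binding PP2A and HSF1, had values on the other side of control from those of IER2. It was at 9.97, 10.97 and 9.92 FPKM in control cells, 13.43, 11.86 and 12.97 at 30 min and 14.54, 13.51 and 13.50 at 24 h. Every treated library lay above every control library, but the steps were small. The edgeR log2 fold change was 0.32 at 30 min (SE 0.0839, adjusted p = 0.0577) and 0.38 at 24 h (SE 0.0847, adjusted p = 0.000538), 1.30-fold, and neither was a call. The IER2 to IER5 ratio of FPKM was 3.35, 3.72 and 3.34 in control cells, 1.76, 2.11 and 1.99 at 30 min and 1.94, 2.25 and 2.25 at 24 h. Control libraries thus lay apart from all 6 treated libraries, and the treated groups overlapped. Over the 3 IER genes, IER2 made up 75.1% ± 1.25 of the summed FPKM in control cells, 65.1% ± 1.70 at 30 min and 62.7% ± 1.10 at 24 h (SD, n = 3 each).

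SRF (chr6:43171269-43181506) was about as abundant as IER2. It was at 33.89, 34.52 and 33.05 FPKM in control cells, 32.28, 33.78 and 38.18 at 30 min and 31.44, 31.85 and 32.97 at 24 h. The 30 min libraries, of which replicate 3 was the highest, spread across both other groups. The edgeR log2 fold change was 0.05 at 30 min (SE 0.0617, adjusted p = 0.838) and -0.12 at 24 h (SE 0.0634, adjusted p = 0.0947), and -0.19 from 30 min to 24 h (SE 0.0630, adjusted p = 0.0105), which is 1.14-fold. EGR1, with CArG boxes printed above, and SRF, which carries 2 of its own, had log2 fold changes of -2.12 and 0.05 at 30 min, respectively. EGR2, with 1 box, had -0.81 (SE 0.564) in the fit with no filter. Whether the boxes had a part in these values was not tested.

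In control cells the order by mean FPKM was IER2, SRF, IER5, NAB1, NAB2, EGR1, IER3, EGR3 and EGR2. IER2 and SRF overlapped in their libraries, as did NAB1 and NAB2, NAB2 and EGR1, and EGR3 and EGR2, while IER5 lay apart from its neighbours and IER3 from its own. At 30 min SRF stood above IER2 in every library and EGR1 stood between NAB1 and IER3, apart from both. At 24 h NAB2 stood above NAB1 in every library, and IER3 lay below EGR1 and above both low EGR genes.

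**Figure D3:**
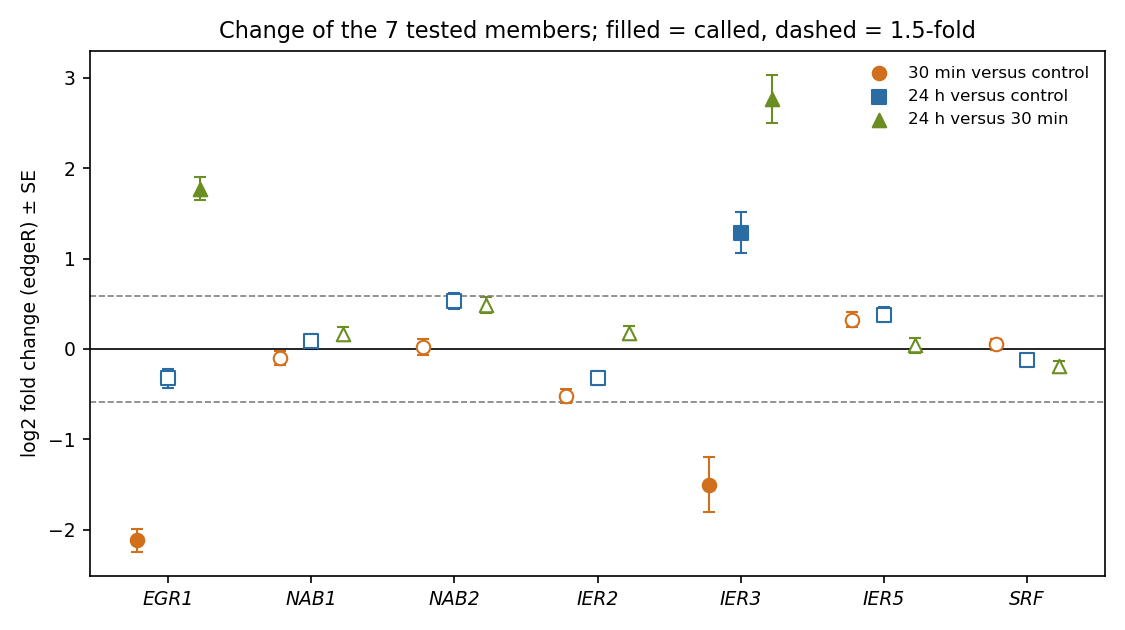
edgeR log2 fold change of the 7 tested members in the 3 comparisons, with 1 SE on each side. Filled symbols are calls (adjusted p below 0.05 and at least 1.5-fold), open symbols are not, and dashed lines mark 1.5-fold. EGR1 (-2.12) and IER3 (-1.504) are the filled symbols at 30 min, and IER3 (1.29) is the filled symbol at 24 h versus control.

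The difference between the 2 treatment times was tested directly. Of the 7 tested members, 2 (EGR1 and IER3) were called higher at 24 h than at 30 min and 0 lower, where 15.4% of 11981 genes were called higher and 11.5% lower. IER3, at 0.533 FPKM at 30 min, passed the filter here only through its 24 h level, so its call is no support for a share of members above that background. Scaling by library totals alone moved the all-gene split from 1379 lower and 1844 higher to 1079 and 2235, and left both member calls in place. NAB2 was higher at 24 h by 0.49 on the log2 scale (SE 0.0880, edgeR adjusted p = 5.8e-05), under 1.5-fold. The 3 comparisons share groups of libraries, so their values for a gene are not independent.

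**Figure D4:**
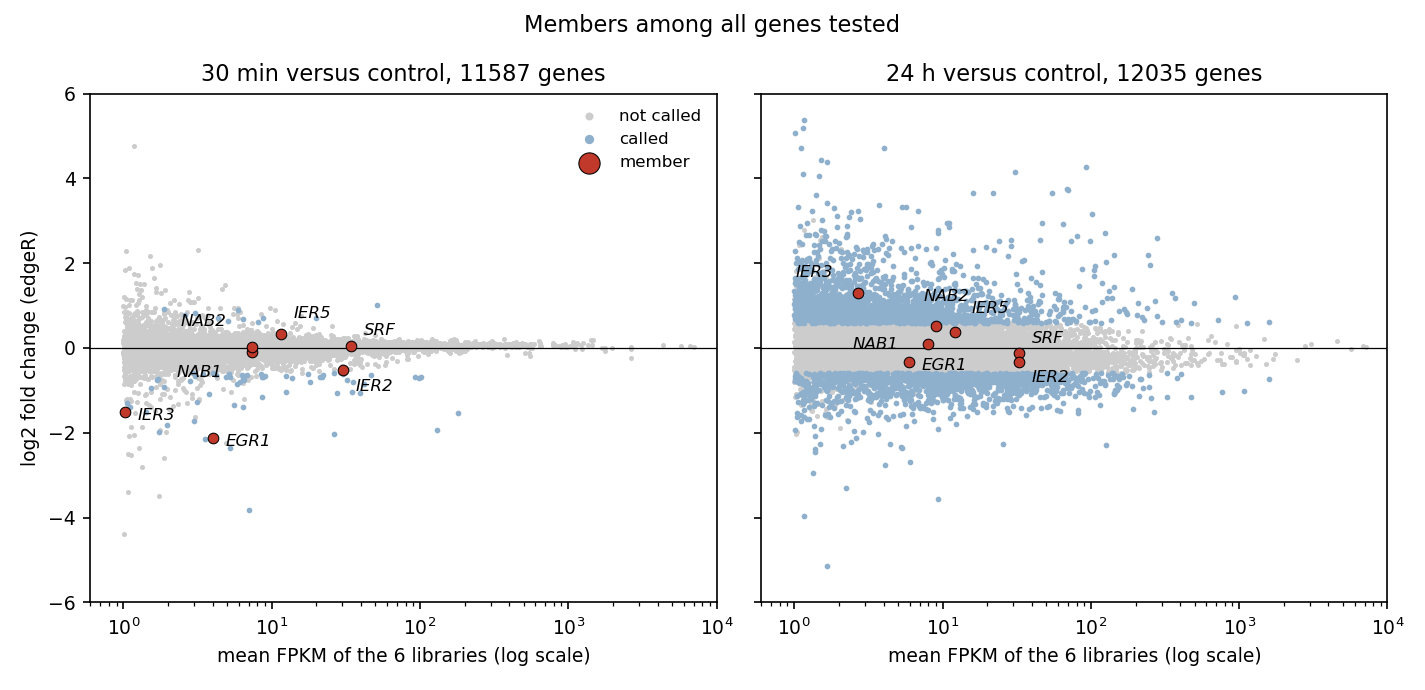
edgeR log2 fold change against the mean FPKM of the 6 libraries (log axis) for all genes tested at 30 min (11587) and 24 h (12035) versus control, with the 7 tested members in red. At 30 min EGR1 and IER3 lie among the few called genes, and at 24 h most members lie in the band of uncalled genes while calls are common around them.

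Genes upstream of SRF were read from a list of 17: the ternary complex factors ELK1, ELK3 and ELK4, the myocardin family, and kinases from RAF to the RSK and MSK enzymes. At 30 min 16 were tested, 0 were called in either direction and 0 passed the adjusted p alone, where 0.544% of all genes tested were called lower and 0.0949% higher, so that no call is near the background in a list of this size. The median log2 fold change was -0.029, beside -0.0043 for all genes. At 24 h 15 were tested, 1 was called higher and 0 lower, against 15.1% and 11.2% of all genes tested, with a median of 0.173 beside 0.0082. By the adjusted p alone 7 were higher and 1 lower, against 31.5% and 31.8% of all genes. The called gene was RPS6KA2, an RSK kinase, which went from 1.32 ± 0.183 FPKM in control cells to 3.36 ± 0.237 at 24 h (SD, n = 3 each; log2 fold change 1.31, SE 0.109, edgeR adjusted p = 1.49e-09).

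Cytoskeletal targets of SRF, a list of 18 with 12 tested, had 0 calls at 30 min (0 also by the adjusted p alone, median 0.009) and 0 calls at 24 h. Of all genes tested, 0.544% were called lower and 0.0949% higher at 30 min, and 11.2% and 15.1% at 24 h. No call at 30 min is thus near the background in a list of this size. At 24 h 6 of the 12 were higher and 4 lower by the adjusted p alone, against 31.5% and 31.8% of all genes tested, with a median of 0.064. ACTB, to which the study's qPCR values were scaled, was at 1792 ± 107 FPKM in control cells, 1764 ± 103 at 30 min and 1680 ± 13.7 at 24 h (SD, n = 3 each). Its log2 fold changes were -0.01 (SE 0.0536, edgeR adjusted p = 0.974) and -0.14 (SE 0.0554, edgeR adjusted p = 0.0307), small beside those of EGR1 and IER3 at 30 min.

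Of 12 reported targets of EGR1, 5 were tested against control at each time. At 30 min 1 was called lower and 0 higher, where 0.544% of all genes tested were called lower and 0.0949% higher. The median was -0.103, beside -0.0043 for all genes. The called gene was F3, the coagulation initiator tissue factor, which went from 2.11 ± 0.0265 FPKM to 0.727 ± 0.0651 (SD, n = 3 each; log2 fold change -1.52, SE 0.171, edgeR adjusted p = 9.66e-06). F3 passed the filter through its control level, being under 1 FPKM in the treated groups, so its call is no support for a share above that background. At 24 h F3 was also lower than control (log2 fold change -1.85, SE 0.180, edgeR adjusted p = 1.47e-08). Whether the F3 level depended on that of EGR1 was not tested. F3 was the 1 gene called lower at that time, against 11.2% of all genes. Of the 5, 1 was called higher, against 15.1% of all genes, the angiogenic factor gene VEGFA (log2 fold change 0.90, SE 0.0574, edgeR adjusted p = 2.47e-11). By the adjusted p alone 3 were lower and 2 higher, against 31.8% and 31.5% of all genes. The median was -0.252, beside 0.0082 for all genes. A median over 5 genes can change sign with a single gene added or left out.

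A list of 12 relatives and partners held EGR4, WT1, IER5L, the NAB-binding CHD3 and CHD4, the IER5 partner HSF1 and PP2A subunits. Of these, 8 were tested, and 0 were called in either direction at 30 min (0 by the adjusted p alone) or at 24 h (2 lower and 1 higher by the adjusted p alone, against 31.8% and 31.5% of all genes tested). Calls over all genes tested were 0.544% lower and 0.0949% higher at 30 min, and 11.2% and 15.1% at 24 h, so no call at 30 min is near the background. The medians were -0.013 and -0.1. EGR4 had 0 FPKM in all control and 30 min libraries.

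**Figure D5:**
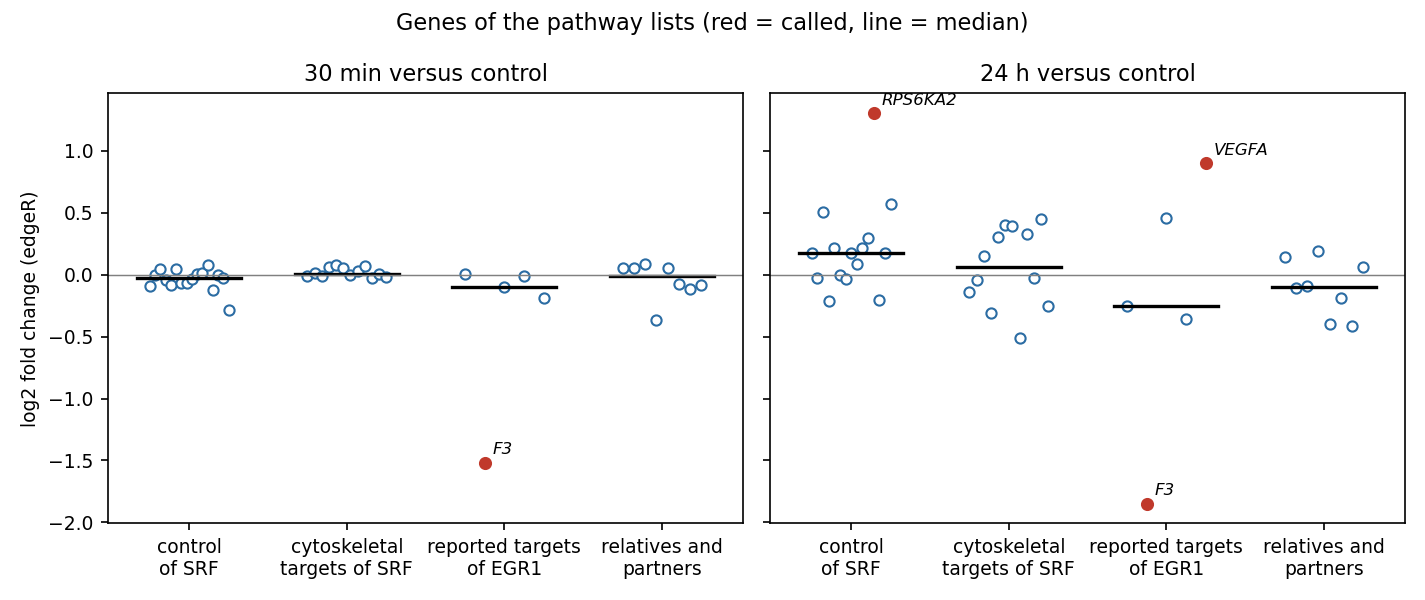
edgeR log2 fold change of each tested gene in the 4 pathway lists at 30 min and 24 h versus control. Red points are calls, open points are not, and black lines are list medians. At 30 min F3 is the 1 call in the 4 lists, and at 24 h the calls are RPS6KA2, F3 and VEGFA.

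Genes whose pattern over the 9 libraries was most like that of a member were listed by Pearson's r of log2 CPM among 12166 genes. The 9 libraries fall into 3 groups, so a high r says little more than that group means are ordered alike. For EGR1 they were JUN (r = 0.991), a subunit of AP-1, and CITED2 (r = 0.986), a transcriptional co-regulator. JUN went from 11.9 ± 0.440 FPKM in control cells to 5.33 ± 0.679 at 30 min and 10.5 ± 0.487 at 24 h, lowest at 30 min, as EGR1 was. CITED2 went from 124 ± 5.71 to 74.5 ± 1.45 and 110 ± 1.31 FPKM (SD, n = 3 each). For IER2 they were UFSP1 (r = 0.955) and IGHMBP2 (r = 0.936), for IER3 GPCPD1 (r = 0.976) and TFAP2E (r = 0.970), for NAB2 GALNS and ARHGAP4 (r = 0.994 each), and for SRF MBTPS1 (r = 0.967) and IQCE (r = 0.951). None of the genes listed for these 5 members was itself a member.

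MYC, the early gene that the study's own question turns on, went from 207 ± 5.10 FPKM in control cells to 54.1 ± 4.58 at 30 min and 43.8 ± 2.03 at 24 h (SD, n = 3 each). Its edgeR log2 fold changes were -1.93 (SE 0.0612, adjusted p = 2.67e-14) and -2.29 (SE 0.0635, adjusted p = 2.66e-17). At 30 min EGR1 was lower by 4.34-fold and MYC by 3.80-fold. The EGR1 value in U937 differs from the study's qPCR, which reported no significant effect on early genes other than c-Myc. The reason for this difference was not tested. From its sequencing, the study reported that c-Myc alone changed significantly in every cell line and at both times together. That statement is about genes shared by all lines and times. EGR1 was not called at 24 h versus control in U937 (log2 fold change -0.33). Its fall at 30 min therefore does not conflict with the sequencing statement. From 30 min to 24 h MYC differed by -0.38 (SE 0.0619, adjusted p = 1.5e-05), while EGR1 rose by 1.77 and IER3 by 2.77, all on the log2 scale in the same edgeR fit.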

How the data were processed

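RNA-seq of 9 U937 libraries was used; 18 libraries of HL-60 and K562 are not analysed here. The authors deposited, in 1 table, the unnormalized count of each gene per library and the FPKM of each gene. The processing notes name cutadapt 1.9.1, HISAT2 2.0.1, HTSeq 0.6.1 and GRCh37, while the methods name hg38. The build of the counts is therefore unsettled, and coordinates printed are GRCh38 positions in GENCODE 44 or RefSeq. Both poly(A) selection and rRNA removal are named for the libraries. The strand setting and annotation release are not given in the sources used here. The deposited FPKM equals the count scaled by gene length and by the library's total gene count. Of 57905 identifiers, 51996 matched a symbol in GENCODE 44.

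Counts were tested with edgeR 4.0.16 (R 4.3.3), TMM normalization, all 9 libraries in 1 quasi-likelihood fit. Dividing each log2 fold change by the square root of its F statistic gave the standard error. DESeq2 1.42.0 and limma 3.58.1 on log2(FPKM + 0.1) or log2(FPKM + 1) were alternatives. The fit was tested on simulated data. Nothing in the labels says that the 3 libraries of a group came from separate cultures, so p-values measure the spread between these libraries. That spread was unequal. The chi-square per gene between replicate pairs, relative to counting error, was 5.278 to 11.922 at 30 min. It was 2.377 to 7.393 in control cells and 2.136 to 3.105 at 24 h, while the 1 fit pools the groups. With only the 6 libraries of the comparison, 2 members were again lower at 30 min. Intervals on counts cover counting error only.

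The members and lists were chosen with earlier results of these data known. Named were all members, up to 4 called genes per pathway list, direction and comparison with control, genes whose exons overlap a member, the 2 genes most like 5 of the members in pattern, ACTB and MYC. A few genes of the lists are not reported here.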

Additional observations from a re-analysis of the deposited data

Results flagged for a closer look

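The values at 24 h and 30 min differed by edgeR's test of the 2 times against each other for 4 members. The log2 fold change at 24 h versus 30 min was 1.77 for EGR1 (adjusted p = 1.71e-10), 2.77 for IER3 (1.16e-08), 0.49 for NAB2 (5.8e-05) and -0.19 for SRF (0.0105). EGR1 and IER3 were over 1.5-fold, and NAB2 and SRF under it. IER3 was below control at 30 min and above it at 24 h, in every library.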

How the results depend on the processing

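Each call count and member value was recomputed under 20 alternatives. Of 413 member values, 397 kept their direction and their side of the call, 2 were no longer called, 7 were called when the 1.5-fold threshold was dropped, and 7 changed sign. Some alternatives could hardly move a log2 fold change. Dropping or raising the fold change threshold kept the main fit, and some left-out libraries were outside the comparison. The 397 are therefore not independent checks. EGR1 at 30 min stayed between -2.21 and -1.59 (adjusted p 1.94e-57 to 1.62e-05) in the 19 alternatives that tested it, and IER3 at 24 h between 0.94 and 1.401 (1.05e-07 to 0.00182). IER3 at 30 min lay between -1.87 and -0.73 (5.75e-05 to 0.0757) in 17. The lowest adjusted p of each of these ranges came from edgeR with no filter, whose p-values can be far smaller at a like SE. With a mean FPKM above 5, EGR1 (at 30 min and between the times) and IER3 were not tested, which left 0 members lower at 30 min, 0 higher at 24 h and 0 higher at 24 h versus 30 min. With no fold change threshold there were 2 lower and 3 higher at 24 h, and 1 lower at 24 h versus 30 min. Leaving out a library gave 1 to 2 lower at 30 min, the 1 being EGR1. The 7 sign changes were of values near 0. Leaving out a library put NAB1 between -0.1709 and 0.0113 at 30 min and between -0.0046 and 0.1714 at 24 h, NAB2 at 30 min between -0.0624 and 0.0945, SRF at 30 min between -0.0171 and 0.0968, and IER5 at 24 h versus 30 min between -0.0215 and 0.0796. IER5 in the last comparison was -0.0191 with no filter.

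With the replicate number as a replicate block, 2 members were lower at 30 min and 1 higher at 24 h, and no call count of the members changed. Libraries of the same number correlated between -0.159 and 0.103 in their deviations from the group means, so the numbers were not taken as pairs. With no filter, 95 genes were lower and 28 higher at 30 min, beside 63 and 11. Low counts limit EGR2, EGR3 and, at 30 min, IER3.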
